A study of Mus musculus with 146 samples.

Results

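The genes examined were the subunits of the proteasome, together with its dedicated assembly chaperones, activators and inhibitor, in single germ cells of the newborn mouse ovary. All gene symbols that consist of Psm, a letter from a to g and a number were taken, pseudogenes left out, which gave 49 members of the 52605 symbols measured. Each of 146 Smart-seq2 libraries held the polyadenylated RNA of 1 hand-picked cell from C57/BL6J female pups at D0.5. Libraries are called cells below, but some were near copies of one another. Whether these came from separate cells was not tested. The ovaries of 1 litter (5 ovaries) were digested together, no cell carried treatment or a mutant allele, and the labels tie no cell to an animal. All cells were therefore 1 sample, cells were not used as replicates in any comparison, and values are given without tests or standard errors. The exact intervals given for shares of cells are the exception. They count each library as a separate cell and cover counting error only. Levels are in TPM, the length-corrected share of a gene in the transcripts of a cell, so that genes can be compared. Between cells TPM compares such shares and not amounts of RNA.

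The proteasome degrades proteins marked by ubiquitin. Its core particle is a barrel of alpha and beta rings, in which Psmb5, Psmb6 and Psmb7 carry the proteolytic sites. The regulatory particle, made of the Psmc ATPases and most Psmd subunits, binds ubiquitin chains, unfolds the substrate and feeds it into the barrel. Interferon exchanges the catalytic subunits for Psmb8, Psmb9 and Psmb10, the thymus uses Psmb11, and meiotic male germ cells exchange the alpha subunit Psma7 for its paralogue Psma8.

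The cells were first checked against their label. Ddx4, the germ cell helicase, was at 0 TPM in 1 library, which entered the clustering described below and was then left out. In the remaining cells Ddx4 lay between 7.49 and 542 TPM with a median of 189. Each of 6 germ cell markers had a mean of at least 1 TPM. So did 1 of 7 pregranulosa markers (Kitl, 1.16 TPM) and 1 of 8 leukocyte markers (H2-Aa, 6.54 TPM). Means of 4 of 6 stroma markers, up to 8.37 TPM (Nr2f2), and of 4 of 7 erythroid and endothelial markers, all of them globins, also reached it. Single cells went higher. Summed per cell, pregranulosa markers had a median of 0.35 and a highest value of 81.6 TPM. Stroma markers had 0.62 and 379 TPM, and leukocyte markers 0.31 and 120.01 TPM. Carry-over of somatic RNA into such cells was not tested. Globins made up 32.5% of the TPM of 1 cell and at most 4.85% of any other. Salmon assigned a median of 9498860 reads to the genes of a cell, with 4074810 in the shallowest and 26855300 in the deepest cell used. Mitochondrial genes took 0.212% to 25.8% of these reads. The spike-in RNA, added at a fixed amount, had a median of 10423, 12182 and 6735 TPM in clusters 1, 2 and 3.

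The study ordered its cells from germ line cysts to follicles, and its clusters were rebuilt from 20 feature genes that included no member of the proteasome. All feature genes but Taf4b, which was added here, are named by the study for its clusters. Cluster 1 held 19 cells, cluster 2 held 93 and cluster 3 held 33. Some libraries of cluster 2 were near copies across the members. An example pair had Psma1 at 356 and 319 TPM, Psma8 at 256 and 248 TPM and Psmb11 at 56.9 and 55.3 TPM. No pair was identical, and all were kept. The count of 93 may therefore exceed the number of distinct cells. The part of near copies in means, shares and counts was not tested. The rebuilt clusters are not the study's own, which left out a few more cells and had a smaller cluster 2 and larger clusters 1 and 3. Clusters are numbered along the main axis of variation of the feature genes (their first component), from high to low Sycp2. Sycp2, of the synaptonemal complex, had a mean of 495, 167 and 62.4 TPM in clusters 1, 2 and 3. Zp3, of the zona pellucida, had 0.09, 14.7 and 557 TPM. Both are feature genes, and their levels only describe the clusters. A ratio below is the log2 ratio of cluster means after adding 1 TPM to both, and a gene is counted as higher or lower when the ratio reached 1.5-fold (0.58 on the log2 scale).

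Proteasome genes were among the more abundant genes of these cells. The 49 members summed to a median of 8376 TPM per cell, with a range from 2702 to 16749, which was a median of 0.84% of the transcripts. Of the members, 46 had a mean of at least 1 TPM, and the exceptions were Psmb8, Psmb9 and Psme2b. All 31 constitutive subunits of the core and regulatory particles were found at 0.1 TPM or more in at least 94.5% of cells, and the median cell contained all 31.

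The 14 core genes, whose products occupy the particle in equal number, differed in transcript level. Psmb2 (chr4:126677630-126709714 in mm10), a beta subunit without a proteolytic site, was the highest of all members at a mean of 749 TPM, above 99.4% of coding genes. It ranged from 0.48 to 2034 TPM over cells. The lowest core genes were Psmb1 with a mean of 102.6 TPM and Psmb5, the chymotrypsin-like catalytic subunit, with 102.9 TPM, so that the highest and lowest means differed 7.30-fold. In cluster 3 the span was wider, 11.8-fold, from Psmb2 at 708 TPM to Psmb1 at 60.2 TPM. Among alpha genes Psma1 was highest (373 TPM) and Psma5 lowest (162 TPM). Within the regulatory particle, mean levels ran from 89.3 TPM for the ATPase Psmc2 to 404 TPM for the ATPase Psmc6, and from 75.4 TPM for Psmd3 to 402 TPM for the ubiquitin receptor Psmd4. The chaperones of core assembly ranged from 49.04 TPM for Psmg2 to 358 TPM for Psmg1. Those of the regulatory particle ranged from 79.7 TPM for Psmd5 to 150.4 TPM for Psmd10.

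**Figure D1:**
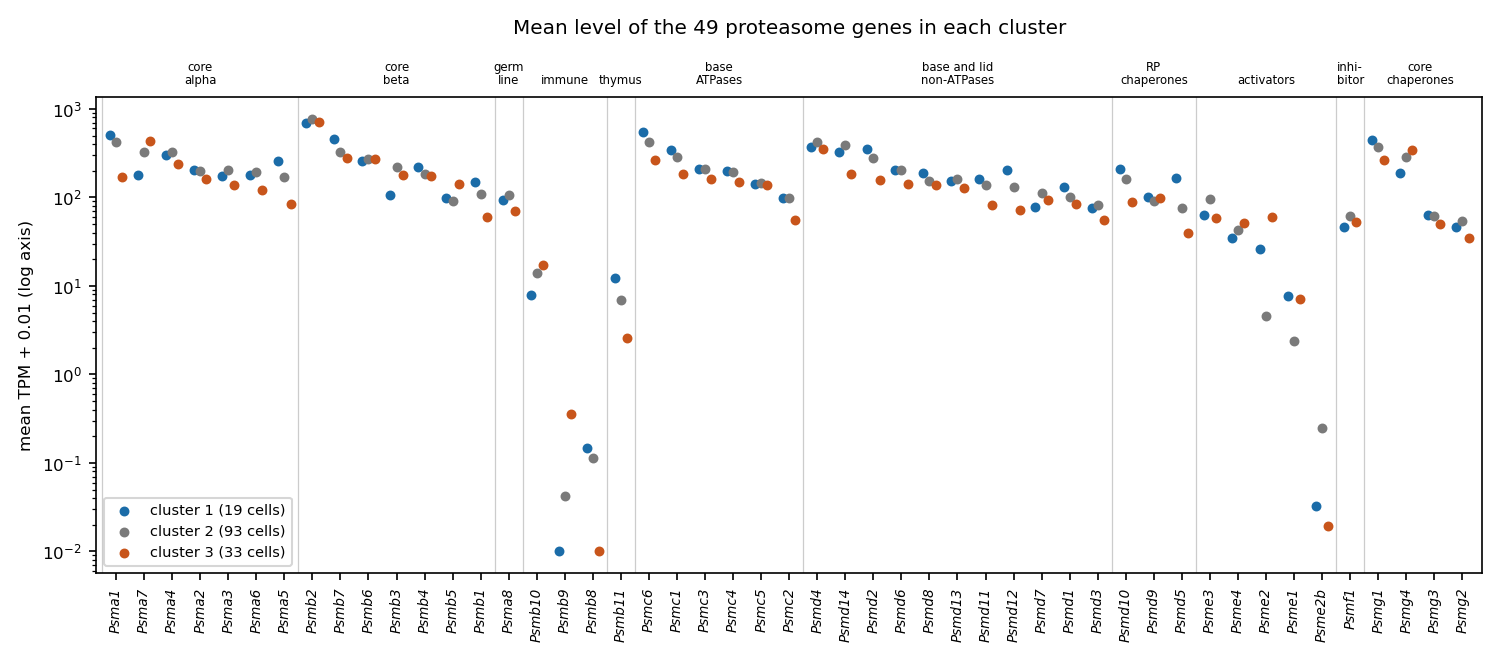
Mean TPM of each of the 49 members (horizontal axis, grouped by class and sorted by mean level) in clusters 1, 2 and 3, on a log axis with 0.01 added so that means of 0 can be drawn. Constitutive core and regulatory subunits lie between 56.01 and 775 TPM in each cluster, while Psmb8, Psmb9 and Psme2b lie below 1 TPM.

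Gene levels here depend in part on how reads were assigned. For 5 members (Psma5, Psmb3, Psmb5, Psme2 and Psme2b), more than 50% of the 31-base stretches of their transcripts also occurred in another annotated transcript, and for 13 members more than 10% did. Psme2 and Psme2b shared 66.2% and 78.4%. How reads of these genes were split cannot be told from the deposited values. Psma1, Psma7, Psma8, Psmb10 and Psmg4 shared none. Another coding gene overlaps 9 members, Psmd5, Psmd1, Psme1, Psmb7, Psmb9 and Psme2b among them, and the library method does not keep the strand.

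Across the cells the summed constitutive subunits varied from 2108 to 14064 TPM. Core and regulatory sums moved together, with Spearman's rho of 0.70 over all cells used. The rho of a constitutive gene with the sum of the others had a median of 0.48, and that of coding genes outside the members with the summed core had a median of -0.04. The strongest was Psmb1 at 0.71, and the weakest constitutive gene was Psmb5 at 0.06. Some genes of other complexes, taken up below, had a like rho with the summed core. It ran from 0.26 (Cct2) to 0.56 (Cct8) in the chaperonin CCT. In the COP9 signalosome it ran from -0.08 (Cops3) to 0.52 (Cops6), and in eIF3 from -0.05 (Eif3a) to 0.57 (Eif3g). Outside the constitutive genes, Psmb8 had the lowest value of all members, -0.17, at a level near 0. These correlations are descriptions: the values of a cell come from 1 library and share its total, its depth and its quality. The summed members were lower in cells with a higher mitochondrial share of reads (rho -0.72), which itself enters the TPM total, and had a rho of 0.16 with depth. On a scale over nuclear coding genes alone, the constitutive sum had a rho of -0.60 with the mitochondrial share, against -0.70 in TPM. The 5 coding genes most like the summed core were Fkbp6, a germ line co-chaperone (rho 0.64), the respiratory subunit Ndufa8 (0.62), the mitochondrial translocase subunit Timm17a (0.61), the nuclear isomerase Fkbp3 (0.61) and the translation factor Eif5a (0.61), out of 11694 genes compared.

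The promoters of the members were searched for the letters bound by NFE2L1 and NFE2L2, regulators of proteasome genes. They were also searched for those bound by NRF-1, a factor found at many housekeeping promoters. RefSeq windows from 250 bases before to 50 after the start (GRCm38.p6) matched 41 of the 49 members. The core of the antioxidant response element, to which the first pair binds, TGACNNNGC on either strand, occurred in 6 of 41 members (14.6%) and in the windows of 13.99% of all symbols. The core motif of NRF-1, searched on both strands, occurred in 7 of 41 (17.1%) and in 5.19% of symbols. The symbols compared were not limited to genes expressed in these cells, and a set of like promoters was not compared. A match is a description of letters and no evidence of binding. Shown 5′ to 3′ are the 250 bases before the start of a gene with each kind of match, of one with a match that reads alike on both strands, and of Psma7, a member higher in cluster 3 than in cluster 1, which held neither. Capitals mark the match.
Psmb6, chr11:70525107-70525356, plus strand, antioxidant response element core: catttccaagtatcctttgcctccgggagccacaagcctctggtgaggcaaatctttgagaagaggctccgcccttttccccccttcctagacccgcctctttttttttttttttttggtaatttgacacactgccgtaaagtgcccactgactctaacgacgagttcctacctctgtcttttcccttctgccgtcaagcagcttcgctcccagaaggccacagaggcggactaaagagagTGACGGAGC
Psmd14, chr2:61711444-61711693, plus strand, NRF-1 core: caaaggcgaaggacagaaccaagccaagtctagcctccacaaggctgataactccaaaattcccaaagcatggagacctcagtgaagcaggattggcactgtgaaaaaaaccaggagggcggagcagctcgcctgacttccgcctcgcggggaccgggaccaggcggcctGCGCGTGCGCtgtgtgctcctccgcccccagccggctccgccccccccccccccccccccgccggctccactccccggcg
Psma2, chr13:14612992-14613241, plus strand, NRF-1 core on both strands: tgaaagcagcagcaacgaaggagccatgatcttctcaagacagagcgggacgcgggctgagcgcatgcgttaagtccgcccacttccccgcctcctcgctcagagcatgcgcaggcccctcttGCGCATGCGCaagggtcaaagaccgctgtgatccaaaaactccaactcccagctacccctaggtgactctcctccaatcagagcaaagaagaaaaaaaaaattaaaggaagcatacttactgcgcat
Psma7, chr2:180042465-180042714, minus strand, neither: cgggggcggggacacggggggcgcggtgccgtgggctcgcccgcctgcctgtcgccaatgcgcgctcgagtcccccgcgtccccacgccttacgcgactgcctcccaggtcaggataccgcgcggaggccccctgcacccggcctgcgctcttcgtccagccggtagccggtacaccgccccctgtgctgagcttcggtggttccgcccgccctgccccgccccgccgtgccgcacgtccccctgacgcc
The genes with an NRF-1 core were Psma2, Psma3, Psma4, Psmc4, Psmc5, Psmd14 and Psmg1, and those with the response element were Psmb5, Psmb6, Psmc6, Psmd9, Psmd12 and Psme4. The TPM log2 ratios of these genes for cluster 3 over cluster 1 ran from Psmd12 (-1.47) to Psme4 (0.54), and their ratios per spike-in from Psmd12 (-0.59) to Psmb5 (1.25).

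The first comparison was of cluster 2 with cluster 1. Of the 46 members with a mean of at least 1 TPM, 5 were higher (24.9% of 11740 coding genes were) and 6 were lower (21.1% of coding genes). The median log2 ratio was -0.01, and that of all coding genes was 0.01. The higher members were Psma7, Psmb3, Psmb10, Psmg4 and the nuclear activator Psme3 (0.60), and the lower ones were Psma5, Psmb11, Psmd5, Psmd12, Psme1 and Psme2. Without the globin-rich cell of cluster 1, 3 members and 24.5% of coding genes were higher.

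Between clusters 2 and 3 more genes were lower than higher in TPM, among the members and among all coding genes. In cluster 3, 3 members (Psmb5, Psme1 and Psme2) were higher, which was 6.52%, against 16.7% of coding genes. Lower were 17 members, which was 37.0%, against 30.4% of coding genes. The median log2 ratio of the members was -0.39 and that of all coding genes was -0.22. All 17 subunits of the regulatory particle had a lower mean in cluster 3 than in cluster 2, by log2 ratios between -0.09 and -1.09, and 7 of them passed 1.5-fold. The 14 core genes were split, with 11 below and 3 above. Of all coding genes, 61.5% had a lower mean in cluster 3 than in cluster 2. With means of log2 values the median of all genes turned to 0.11, with 26.1% higher and 13.8% lower, while that of the members was -0.41. The members' median stayed below 0 in CPM, the share of reads without division by transcript length (-0.38), and on the nuclear coding scale (-0.34), but after division by spike-in TPM it turned: the median of the members became 0.46 and that of all genes 0.59, with 19 of 46 members and 50.2% of genes higher.

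From cluster 1 to cluster 3, 5 members (Psma7, Psmb3, Psmb10, Psme2 and Psmg4) were higher (27.3% of coding genes) and 16 were lower (36.1%). The share of members that were lower was 34.8%, close to that of all genes, and the share that were higher was 10.9%. That closeness depends on the averaging: with means of log2 values the members' median was -0.50 and that of all genes -0.004, with 28.9% of genes lower. Their median log2 ratio was -0.39, against -0.18 for all coding genes, and on the spike-in scale both turned positive, to 0.42 and 0.45. There 14 members (30.4%) were higher and 6 (13.04%) lower, against 45.4% and 19.5% of genes, and 22 of the 46 members (47.8%) went from a ratio below 0 in TPM to one above 0, as did 20.4% of coding genes. Summed core genes had a mean of 3777 TPM in cluster 1 and 3160 TPM in cluster 3 (log2 ratio -0.26, or 0.57 per spike-in), and summed regulatory subunits had 3788 and 2441 TPM (log2 ratio -0.63, or 0.16 per spike-in). The mean level per core gene over that per regulatory gene had a median of 1.20 in the cells of cluster 1, 1.31 in cluster 2 and 1.54 in cluster 3, with ranges that overlapped (0.81 to 1.57 and 0.61 to 2.96 in clusters 1 and 3). The median mitochondrial share of reads was 5.20%, 6.18% and 7.72% in clusters 1 to 3, and its part in these ratios was not tested.

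**Figure D2:**
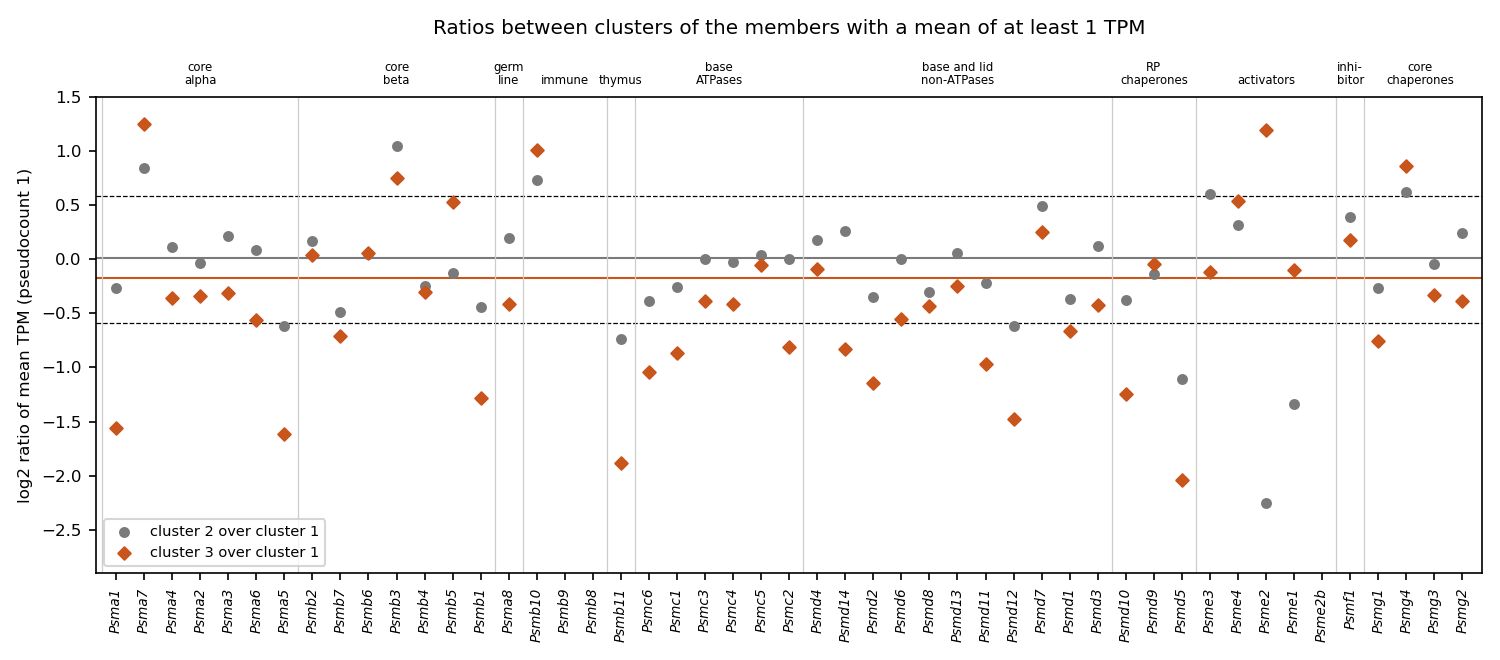
Log2 ratio of mean TPM (pseudocount 1) of cluster 2 (circles) and cluster 3 (diamonds) over cluster 1 for the 46 members with a mean of at least 1 TPM, grouped by class, with dashed lines at 1.5-fold and solid lines at the medians of all coding genes (0.01 and -0.18). In TPM, 5 of 6 regulatory ATPases and 9 of 11 non-ATPases lie below the cluster 3 line, while per spike-in the members' median of cluster 3 over cluster 1 was 0.42.

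Within the alpha ring the order of the genes changed. Psma1 (chr7:114264606-114276118) was at 267, 524 and 807 TPM (lowest, median, highest) in cluster 1, at 2.83, 387 and 1152 in cluster 2 and at 42.3, 166 and 337 in cluster 3. Clusters 1 and 3 overlapped only between 267 and 337 TPM. The log2 ratio between these clusters was -1.56 in TPM and -0.78 per spike-in. Psma1 was the second most abundant core gene in clusters 1 and 2 and ranked 8 of 14 in cluster 3. Psma5 went the same way, from a mean of 261 to 170.0 and 84.5 TPM (log2 ratio -1.61, per spike-in -0.71), with the reservation on shared sequence above. The beta gene Psmb1 had means of 148, 108.4 and 60.2 TPM (-1.28, per spike-in -0.52).

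Psma7 (chr2:180036374-180042433) took the opposite course. In cluster 1 it lay at 5.39, 146 and 669 TPM (lowest, median, highest), in the middle cluster at 28.5, 312 and 731 and in cluster 3 at 0.41, 429 and 860.4. All clusters overlapped, and the median of cluster 3 exceeded all cells of cluster 1 but 1. The log2 ratio between clusters 1 and 3 was 1.25, with a range of 1.18 to 1.49 when each cell was left out in turn, 2.16 per spike-in and 0.63 with clusters made from 2000 variable genes. It ranked 9 of the 14 core genes in cluster 1, 4 in the middle cluster and 2 in the last. In 5 bins of 29 cells along the order of the feature genes, its mean was 208, 276, 335, 356 and 479 TPM, while that of Psma1 was 484, 414, 453, 347 and 168 TPM. The median of the other alpha genes in a cell, Psma1 to Psma6, had a mean of 224, 218 and 143.6 TPM in the same clusters.

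The beta gene Psmb3 had means of 106.4, 221 and 180 TPM (log2 ratio of cluster 3 over cluster 1 of 0.75, per spike-in 1.86). With clusters made from 2000 variable genes the ratio was only 0.02, and most of the Psmb3 sequence is shared. Psmb5, Psmb6 and Psmb7, the catalytic genes, did not move together in TPM. Their means in clusters 1, 2 and 3 were 98.003, 89.96 and 142.1 TPM for Psmb5, 260, 269 and 270.5 TPM for Psmb6 and 453, 324 and 277 TPM for Psmb7. The log2 ratios of cluster 3 over cluster 1 were 0.53, 0.06 and -0.71 in TPM. Per spike-in they were 1.25, 0.73 and 0.19, so that all 3 lay above 0 and Psmb5 and Psmb6 passed 1.5-fold, and with clusters from variable genes Psmb7 was at -0.50.

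Psma8, the germ line alternative to Psma7, was transcribed in most cells. It reached 0.1 TPM in 91.03% of the cells used (exact Clopper-Pearson 95% interval 85.2% to 95.1%, which covers counting error only). The interval takes each library as a separate cell, near copies included. It was found in 17 of 19, 82 of 93 and 33 of 33 cells of clusters 1, 2 and 3. The lowest, median and highest values were 0, 78.5 and 346 TPM in cluster 1, 0, 97.98 and 431 in cluster 2 and 0.20, 67.4 and 225 in cluster 3. These ranges overlap almost fully, and the ratio of cluster 3 over cluster 1 was -0.41, but 0.41 on the spike-in scale. With Ward clusters it was -0.65 and with variable-gene clusters -1.03, both past 1.5-fold in TPM. Along the order, the 5 bins had means of 149, 111.9, 85.9, 66.9 and 70.5 TPM, and the rho of Psma8 with the order was -0.23.

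Psma8 made up 34.01% of the summed mean TPM of Psma7 and Psma8 in cluster 1, 24.8% in cluster 2 and 13.9% in cluster 3. A share within a cell does not depend on the spike-in scale, and with cells weighted by their spike-ins the shares were 36.8%, 26.03% and 14.8%. In CPM they were 53.4%, 42.9% and 28.6%, in the same order of clusters but with Psma8 the larger part in cluster 1. The total of the pair had a mean of 274, 432 and 503 TPM, so the lower share in cluster 3 went with more Psma7 on both scales, and with less Psma8 in TPM but not per spike-in. In single cells the share ran from 0 to 99.4% with a median of 19.7%. Psma8 exceeded Psma7 in 16 cells, 5 of 19 in cluster 1, 9 of 93 in cluster 2 and 2 of 33 in cluster 3. Over cells the 2 genes had a rho of -0.09, and of -0.10 within cluster 2.

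**Figure D3:**
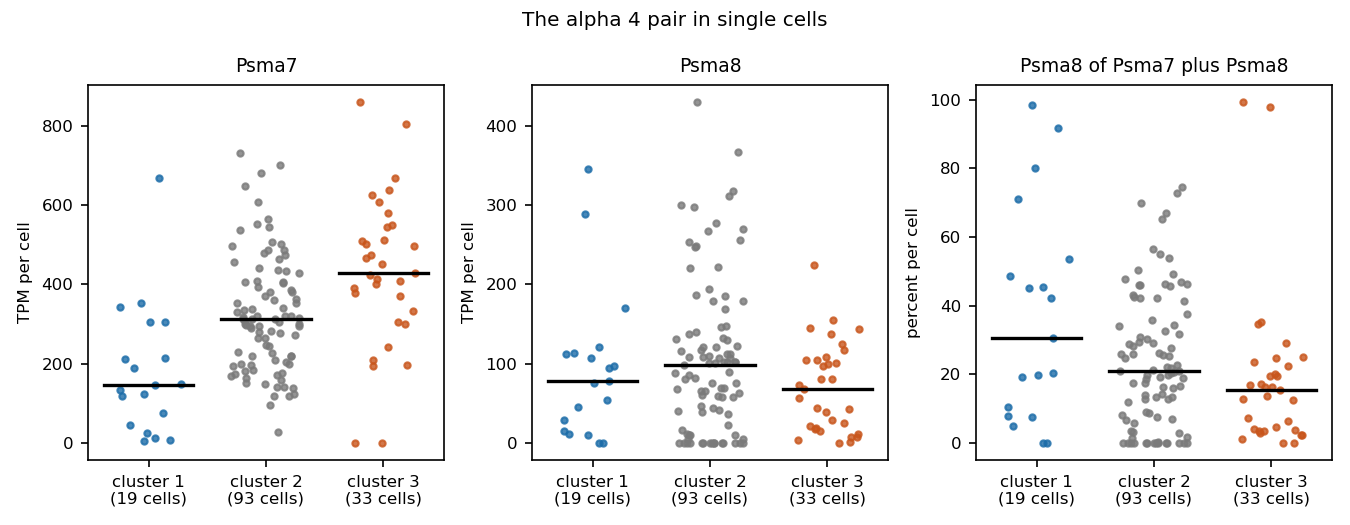
TPM of Psma7 and of Psma8 and the percent of Psma8 in their sum, 1 point per cell, in clusters 1, 2 and 3, with bars at the medians. Psma7 has medians of 146, 312 and 429 TPM, and the median share of Psma8 is 30.4%, 20.9% and 15.4%, with overlapping cells.

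Within the regulatory particle the largest differences were in some non-ATPase subunits and in its chaperones. Psmd5 (chr2:34849734-34874968), a chaperone that holds the base during assembly, had the lowest ratio of cluster 3 over cluster 1 of all members in TPM and per spike-in. With means of log2 values or variable-gene clusters Psma5 was lowest (-2.24 and -1.62), and in CPM or on the nuclear coding scale Psmb11 was (-2.06 and -2.05). The lowest, median and highest values of Psmd5 were 7.91, 154 and 361 TPM in cluster 1, 0, 68.6 and 216 in cluster 2 and 1.03, 33.2 and 155 in cluster 3. The highest cell of cluster 3 thus lay near the median of cluster 1. In TPM its log2 ratio between clusters 1 and 3 was -2.04, per spike-in it was -1.59, and with variable-gene clusters -1.12. Psmd10, another base chaperone, had means of 209, 161 and 87.6 TPM (-1.24, per spike-in -0.26), whereas Psmd9, the third, had 100.2, 91.03 and 97.3 TPM (-0.04, but 1.10 per spike-in and 0.69 in CPM, both past 1.5-fold).

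Among the subunits of the particle itself, the lid subunit Psmd12 had means of 203, 132.05 and 72.5 TPM (log2 ratio -1.47). The base scaffold Psmd2 had 352, 276 and 158 TPM (-1.15). The ATPase Psmc6 had 552, 422 and 268 TPM (-1.04) and the lid subunit Psmd11 had 161, 138.5 and 82.1 TPM (-0.97). Of these, Psmd12 and Psmd2 stayed lower by 1.5-fold per spike-in, at -0.59 and -0.61, while Psmc6 was at -0.08 and Psmd11 at -0.26. The deubiquitinase Psmd14 had means of 326, 390 and 183 TPM (-0.83, per spike-in -0.08). The ubiquitin receptor Psmd4 had 375, 425 and 352 TPM (-0.09, but 0.69 per spike-in, past 1.5-fold). Of the 6 ATPases, 3 were lower by 1.5-fold in TPM, and of the 11 non-ATPases 5 were, with none higher. Together that was 47.1% of the 17 subunits, against 36.1% of coding genes lower and 27.3% higher. Per spike-in, 3 of the 17 were higher (17.6%, against 45.4% of genes) and 2 lower (11.8%, against 19.5%).

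The chaperones of core assembly differed among themselves. Psmg4 (chr13:34162964-34178173) was higher in cluster 3, with lowest, median and highest values of 25.1, 173 and 542 TPM in cluster 1, 0, 261 and 707 in cluster 2 and 73.8, 304 and 643 in cluster 3. Most cells of the clusters overlapped, and the log2 ratio between clusters 1 and 3 was 0.86 (1.54 per spike-in). Psmg3, with which it forms a pair, had means of 63.1, 61.4 and 49.9 TPM. Psmg1 had means of 447, 372 and 265 TPM (-0.75, but 0.08 per spike-in and -0.40 with variable-gene clusters), and its partner Psmg2 had 46.04, 54.6 and 35.1 TPM.

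**Figure D4:**
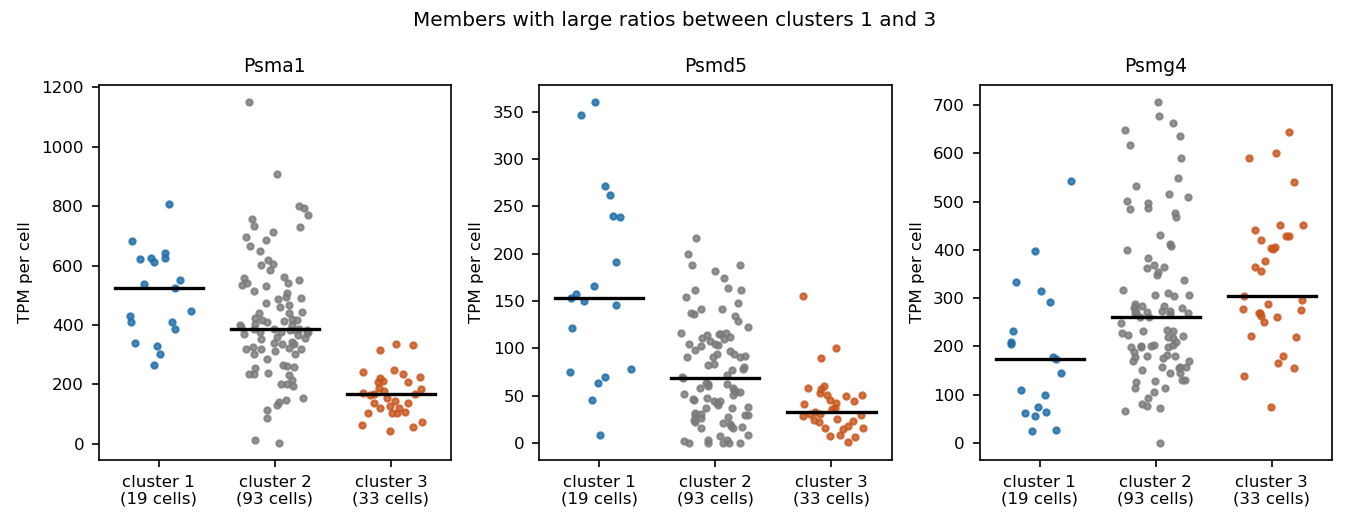
TPM per cell of Psma1, Psmd5 and Psmg4 in clusters 1, 2 and 3, 1 point per cell, with bars at the medians. Psma1 has medians of 524 and 166 TPM and Psmd5 of 154 and 33.2 TPM in clusters 1 and 3, with both also lower per spike-in, while Psmg4 has medians of 173 and 304 TPM.

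The immune catalytic subunits were scarce. Psmb8 reached 0.1 TPM in 9 of the cells used (6.21%) and Psmb9 in 2 (1.38%), with means of 0.085 and 0.1 TPM. Cluster 3 had 0 of 33 cells with Psmb8, which allows a share of up to 9.09% when 3 cells are taken as the limit of a count of 0 (the exact interval reaches 10.6%). Cluster 1 had 0 of 19 cells with Psmb9, which allows up to 15.8% (17.6% by the exact interval). Psmb10 (chr8:105935735-105938444) was the exception, with a mean of 13.9 TPM and 52 cells (35.9%, exact interval 28.1% to 44.2%). It was found in 6 of 19 cells of cluster 1 (31.6%), in 25 of 93 of cluster 2 (26.9%) and in 21 of 33 of cluster 3 (63.6%, interval 45.1% to 79.6%). The 25 include near-copy pairs of libraries, at 84.3 and 69.8 TPM and at 40.8 and 53.6 TPM. After thinning each cell to 1000000 reads the shares were 26.3%, 24.7% and 57.6%. Each interval covers counting error alone and takes each library as a separate cell. Its lowest, median and highest values were 0, 0 and 49.3 TPM in cluster 1, 0, 0 and 147 in cluster 2 and 0, 8.66 and 79.8 in cluster 3. The ratio between clusters 1 and 3 was 1.01, but 0.47 with the variable-gene clusters and 1.96 per spike-in. Immune subunits made up 0.99%, 2.02% and 2.46% of the summed catalytic genes in TPM (0.35%, 0.84% and 0.92% in CPM), and at most 20.5% in 1 cell.

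The leukocyte markers, summed, had a median of 0.35, 0.17 and 3.07 TPM in clusters 1, 2 and 3. They ranged up to 36.4, 120.01 and 73.6 TPM, with Tyrobp at 0 in all cells. Their rho was 0.22 with Psmb10 and 0.20 with Psme2, and their part in those levels was not tested. The erythroid and endothelial markers had a like rho with Psmb10 (0.22) and one of 0.07 with Psme2. Psmb11, the thymus subunit, had a mean of 6.65 TPM and reached 0.1 TPM in 86 cells, mostly at trace level (medians of 0.16, 0.28 and 0.13 TPM). Its means of 12.3, 6.94 and 2.59 TPM rest on few cells: leaving out each cell moved the log2 ratio of cluster 2 over cluster 1 from -0.74 to between -0.96 and 0.09, the last without the cluster 1 cell at 116.1 TPM. The ratio of cluster 3 over cluster 1, -1.88, lay between -2.49 and -1.06 and was -0.84 with variable-gene clusters.

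The activators cap the core in place of the regulatory particle. Psme1 and Psme2 form one interferon-induced ring, and Psme2 varied more between clusters than any other member. Psme2 (chr14:55587441-55591113) had lowest, median and highest values of 0, 7.31 and 96.6 TPM in cluster 1, of 0, 0 and 133.04 in cluster 2 and of 0, 45.5 and 400.5 in cluster 3. It was found in 13 of 19, 17 of 93 and 24 of 33 cells (68.4%, 18.3% and 72.7%), and after thinning to 1000000 reads in 47.4%, 8.60% and 66.7% of cells. Cluster 2 was thus the low one, with most of its cells at 0. The means of 25.8, 4.60 and 60.2 TPM gave log2 ratios of -2.26 for cluster 2 over cluster 1 and 3.45 for cluster 3 over cluster 2, which were -2.36 and 4.26 per spike-in. With clusters from 2000 variable genes the first became -0.39 and the second 2.59.

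Psme1, its partner, was lower throughout, with means of 7.59, 2.40 and 7.03 TPM and 36 cells at 0.1 TPM or more. Of the 54 cells with Psme2, 20 also had Psme1 and 31 also had Psmb10. In cluster 3, 19 of the 24 cells with Psme2 had Psmb10, against 2 of the 9 without it. In cluster 2 the contrast was weaker, with Psmb10 in 6 of the 17 cells with Psme2 and in 25 of all 93 cells, and in cluster 1 all 6 cells with Psmb10 were among the 13 with Psme2. Both genes had a rho with reads per cell (0.32 for Psme2 and 0.24 for Psmb10) and with spike-in share (-0.37 and -0.33), whose part in this overlap was not tested. Psme3, the nuclear activator, had means of 63.2, 96.3 and 58.3 TPM. Psme4, which is known for histone degradation in testis, had 34.6, 43.3 and 50.8 TPM, with medians of 14.6, 25.8 and 24.5 TPM. Its ratio of cluster 3 over cluster 1 was 0.54, with a range of 0.14 to 0.79 when each cell was left out in turn, and 0.84 per spike-in. The ratio of cluster 3 over cluster 2, 0.22, turned to -0.18 without 1 cell. The inhibitor Psmf1 had 46.2, 60.9 and 52.5 TPM, with no ratio past 1.5-fold in TPM but one of 1.15 for cluster 3 over cluster 1 per spike-in.

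**Figure D5:**
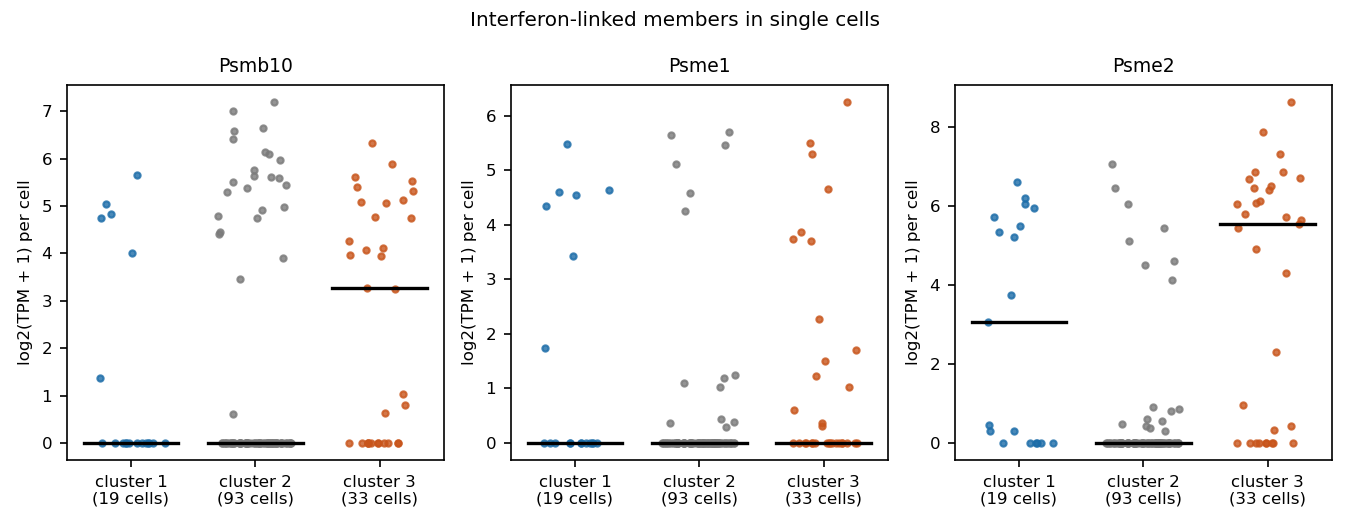
Log2(TPM + 1) per cell of Psmb10, Psme1 and Psme2 in clusters 1, 2 and 3, 1 point per cell, with bars at the medians. Many cells lie at 0: Psmb10 was found in 6, 25 and 21 cells of clusters 1, 2 and 3, Psme1 in 7, 14 and 15 and Psme2 in 13, 17 and 24.

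Genes that act with the proteasome were read from a list of 31 partners, assembly factors, shuttle factors and ubiquitin genes, of which 29 were found and 28 had a mean of at least 1 TPM. Between clusters 1 and 3, 3 were higher (10.7%, against 27.3% of coding genes) and 10 were lower (35.7%, against 36.1%), with a median log2 ratio of -0.48 in TPM. Per spike-in the median was 0.33, with 11 higher (39.3%, against 45.4%) and 3 lower (10.7%, against 19.5%). Higher were Pomp, which completes core assembly (means 138.4, 253 and 305 TPM, log2 ratio 1.13), Akirin2, an import factor of nuclear proteasomes (28.8, 67.5 and 95.2 TPM, 1.69), and Zfand2a, a stress-induced proteasome binder (8.03, 24.7 and 45.8 TPM, 2.37). Ngly1, which with Ddi2 activates the regulator Nfe2l1, was lowest at -1.81, followed by the regulator Nfe2l2 at -1.57 and the shuttle factor Ubqln1 at -1.56. These 6 kept their direction per spike-in, with ratios of 1.93, 2.35 and 2.79, and of -1.10, -0.99 and -0.85. They also did so in CPM, where Zfand2a was at 0.91. Of the antigen presentation genes that take up proteasome products, 12 of 16 had a mean of at least 1 TPM, and the transporter genes Tap1 and Tap2 were at 0.04 and 0.07 TPM. There 2 were higher, B2m (13.4, 16.3 and 61.3 TPM, 2.11) and Irf1 (3.24, 9.88 and 33.3 TPM, 3.02), and 7 were lower, with H2-D1 (97.1, 16.9 and 1.39 TPM) at -5.36, Erap1 at -1.55 and Pdia3 at -1.28, while Pdia3 was at -0.31 per spike-in. These were 16.7% and 58.3% of the 12 genes in TPM, and per spike-in 5 were higher and 3 lower. Some of these means rest on part of the cells. B2m was found in 60.7% of the cells used, H2-D1 in 53.8%, Irf1 in 42.1% and Erap1 in 24.1%, but Pdia3 in 100%. Of the partners, Zfand2a was found in 46.2% and Nfe2l2 in 55.2%, while Ngly1, Ubqln1, Akirin2 and Pomp ran from 88.3% to 100%.

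Complexes of similar make-up stood beside these values, with 36.1% of all coding genes lower and 27.3% higher in TPM. The median log2 ratio of cluster 3 over cluster 1 was -0.77 over the 10 genes of the COP9 signalosome, a relative of the proteasome lid, with 6 lower and 1 higher. It was -0.52 over the 14 genes of eIF3, with 6 lower, and -1.40 over the 8 genes of the chaperonin CCT, with 7 lower. The 31 constitutive proteasome subunits had a median of -0.42, with 12 lower (38.7%) and 2 higher (6.45%). These are TPM ratios. Per spike-in the medians were 0.39 for the constitutive subunits, -0.08 for COP9, 0.35 for eIF3 and -0.59 for CCT, against 0.45 for all genes. Of the constitutive subunits, 8 (25.8%) were then higher and 4 (12.9%) lower, against 45.4% and 19.5% of genes.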

How the data were processed

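Smart-seq2 libraries with 92 ERCC spike-ins were made from the polyadenylated RNA of 146 single cells. According to the submitters' processing notes, the authors used FastQC and Salmon with mm10. They deposited, per gene symbol and cell, TPM, whose total includes mitochondrial genes and spike-ins, and estimated counts of reads without normalization. The annotation release is not given in the sources used here. Coding genes were found by symbol in GENCODE M21 and RefSeq, which gave 19780 coding genes and left 24295 symbols unmatched. Smart-seq2 reads carry no molecular identifiers.

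The members, lists and comparisons were chosen with earlier results of these data known. To rebuild the clusters, TPM of 20 feature genes entered Seurat 5.3.0 under R 4.3.3 with 10 principal components, 20 neighbours and resolution 0.2, so a difference from the study may come from rebuilt clusters. The cell without Ddx4 (below 1 TPM) was left out. Ratios used cluster means with a pseudocount of 1 TPM. Medians and counts covered genes with a mean of at least 1 TPM, feature genes left out. Detection meant at least 0.1 TPM. All cells are 1 sample, so no test was made, and the labels name no batch. Correlations are Spearman's rho without p-values. Doublets were not called, since cells were picked singly. Shared sequence was counted as 31-base stretches of GENCODE transcripts, and promoters came from RefSeq (GRCm38.p6). The log2 ratio of cluster 3 over cluster 1 was tested on simulated counts, and the other measures were not. Calculations used Python 3.11.15, NumPy 2.4.6, pandas 2.3.3, SciPy 1.17.1 and matplotlib 3.10.9.

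Named are Psma8, the immune subunits and their counterparts, members past 1.5-fold between clusters 1 and 3 (at most 10 in each direction), the highest and lowest member of each class and of the correlations, at most 6 genes of the partner and antigen lists and the 5 genes most like the core. Members outside that rule are named where a count of a few needed it, to set a paralogue or partner beside a named gene, or for a check of motifs or reads, and were chosen after their values were seen. Alternatives were a pseudocount of 0.1, means of log2 values, CPM from the estimated counts, spike-in scaling, Ward clusters, clusters from 2000 variable genes, all 146 cells, other low filters and leaving out each cell. A scale over nuclear coding genes without globins, and leaving out the globin-rich cell, were added after the data were seen.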

Additional observations from a re-analysis of the deposited data

Results flagged for a closer look

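The library left out for its lack of Ddx4 carried proteasome transcripts that the comparisons did not use. Of the 49 members, 15 had at least 3 estimated reads in it, the limit that a count of 0 allows, and their TPM summed to 712, against 2702 in the lowest of the cells used. It held 1408460 reads, 14.8% of the median.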

How the results depend on the processing

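Spike-in scaling moved most values. The median of all genes went from -0.18 to 0.45 for cluster 3 over cluster 1 and from -0.22 to 0.59 for cluster 3 over cluster 2. The members' medians became 0.42 and 0.46, with 14 higher and 6 lower (against 45.4% and 19.5% of all genes), and 19 higher and 0 lower (against 50.2% and 9.70% of genes), and in cluster 2 over cluster 1 3 were higher (against 20.9% of genes). Summed core genes had a ratio of 0.57 and regulatory genes one of 0.16, which was -0.63 in TPM, and 22 of 46 members (47.8%, against 20.4% of coding genes) turned from below to above 0 in cluster 3 over cluster 1, 3 of them past 1.5-fold in TPM: Psmb7 (0.19), Psmc2 (0.080) and Psmg1 (0.080). Median rho of the constitutive genes was 0.76 with the others (0.48 in TPM) and 0.077 with the order (-0.20 in TPM), and their sum had -0.34 with the mitochondrial share (-0.70 in TPM).

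With clusters from 2000 variable genes, cluster 3 over cluster 2 had a median of -0.71 and 26 members lower (against 28.6% of genes), cluster 2 over cluster 1 had 1 lower (against 20.6% of genes), cluster 3 over cluster 1 had 3 higher (against 21.8% of genes), and the immune share of cluster 1 was 1.54%. CPM, which does not divide by length, gave Psma8 shares of 53.4%, 42.9% and 28.6% and immune shares of 0.35%, 0.84% and 0.92%, in the same order of clusters. The regulatory sum had -0.56 with all 146 cells and -0.58 on the nuclear coding scale, where the median rho with the others was 0.35. Without the globin-rich cell, 3 members (against 24.5% of genes) were higher in cluster 2 over cluster 1. Causes were not tested.

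Counts and shares within 1.5 times, rho within 0.1, and log2 ratios within 1.5-fold and on the same side of it were taken as unmoved. Of 201 values under alternatives, 173 were, and of 561 values of single genes 469 were, 89 moved, and 3 past 1.5-fold changed sign. Leaving out each cell gave medians from -0.05 to 0.07, -0.42 to -0.35 and -0.42 to -0.31 for the 3 comparisons in the order of the report, and counts higher and lower of 3 to 5 and 4 to 6, 3 to 3 and 15 to 18, and 5 to 7 and 16 to 18. Psma8 shares stayed between 29.4% and 39.02%, 24.1% and 25.2%, and 13.1% and 14.6%, and immune shares between 0.71% and 1.09%, 1.84% and 2.06%, and 2.18% and 2.58%. No paired analysis was possible because all cells form 1 group. Psmb8, Psmb9 and Psme2b had few reads at this depth, which limits the precision of their values.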

Other observations

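A cell contained 32 to 47 of the members at 0.1 TPM or more, and the median number was 44, 43 and 45 in clusters 1, 2 and 3. Psma2 had the lowest coefficient of variation over the cells used, 0.40, followed by Psmd4 and Psmc3 at 0.46 and 0.47, and the constitutive gene with the highest was Psmd3 at 0.94. The activator Psme4 had 1.43, the inhibitor Psmf1 0.93 and the core chaperone Psmg3 1.05.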
